A study of Mus musculus with 8 samples.

Results

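The CDK inhibitors of mouse form 2 families, and each of their 7 genes had 1 row among the 17922 rows of the deposited gene table. A row was taken as a member by its gene symbol. The CIP/KIP family has 3 members, Cdkn1a, Cdkn1b and Cdkn1c, and the INK4 family has 4, Cdkn2a, Cdkn2b, Cdkn2c and Cdkn2d. Of the 7 identifiers in the table, 6 were found in a current table of gene names, and Cdkn2d (ENSMUSG00000066860) is named here only by the symbol in the file.

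The study followed reprogramming of mouse embryonic fibroblasts (MEFs) to induced pluripotent stem cells (iPSCs), and the levels below come from 4 long RNA libraries, 1 per stage. The cells were MEFs not yet induced (day 0), induced cells collected on day 3 and on day 6, and last iPSCs described as fully reprogrammed. All cells were of the strain C57BL/6. The MEFs came from fetuses at 13.5 days and carried tetO-OSKM, that is, copies of Pou5f1, Sox2, Klf4 and Myc whose transcription is switched on by doxycycline through a bacterial operator. Induction used 2 ug/ml doxycycline in a medium with 15% serum replacement, 1000 U/mL LIF and 3 uM of the GSK3 inhibitor CHIR99021. The medium of the MEFs, the source of the doxycycline-responsive activator, the number of pooled animals and the number of iPSC clones are not stated in the sources used. The labels of the iPSCs likewise give no medium and no doxycycline dose. Effects of medium and of induction therefore cannot be told apart between MEFs and the induced cells. Effects of medium and of cell stage likewise cannot be told apart in the comparisons with iPSCs.

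A cyclin-dependent kinase (CDK) drives the cell cycle only when bound to a cyclin, and CDK inhibitors are the proteins that hold these kinases back. INK4 proteins bind the CDK4 and CDK6 monomers and keep D-type cyclins off them, which leaves the retinoblastoma protein unphosphorylated and the E2F factors silent. CIP/KIP proteins bind whole cyclin-CDK complexes, block CDK2 and CDK1 complexes, and also help to assemble cyclin D with CDK4. In fibroblasts, the INK4/ARF locus and Cdkn1a accumulate with passage and stress and enforce senescence, and their loss is known to raise the yield of iPSCs. Cdkn2a is unusual in encoding 2 unrelated proteins, the INK4 protein p16 and the p53-activating protein ARF, from separate first exons. A row per gene does not separate them, so every Cdkn2a value below is for both transcripts together.

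The upstream sequences of the 4 inhibitors that were lower in iPSCs (values below) are shown first, since they are the genes that differed together. Sequences are from RefSeq on GRCm38.p6, which is not the build of the table (mm9), and were matched by symbol; 6 of the 7 members had an entry, and Cdkn1c had none. Each line gives the 250 bases before a transcription start, 5′ to 3′ on the strand of the gene, and the capitals mark letter matches. The letters searched on both strands were GGGCGG (GC box), TATAA (TATA box), CACGTG (E-box), TTCCCGC (E2F core), TGACGTCA (cyclic AMP response element) and the p53 site, a 20-base consensus in which 1 mismatch was allowed.
Cdkn1a upstream start, chr17:29090729-29090978, plus strand: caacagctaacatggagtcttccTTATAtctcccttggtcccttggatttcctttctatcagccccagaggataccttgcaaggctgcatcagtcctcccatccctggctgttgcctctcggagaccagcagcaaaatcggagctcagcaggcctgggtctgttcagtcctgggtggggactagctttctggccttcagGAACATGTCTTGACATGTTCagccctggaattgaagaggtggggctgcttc
Cdkn1a downstream start, chr17:29093519-29093768, plus strand: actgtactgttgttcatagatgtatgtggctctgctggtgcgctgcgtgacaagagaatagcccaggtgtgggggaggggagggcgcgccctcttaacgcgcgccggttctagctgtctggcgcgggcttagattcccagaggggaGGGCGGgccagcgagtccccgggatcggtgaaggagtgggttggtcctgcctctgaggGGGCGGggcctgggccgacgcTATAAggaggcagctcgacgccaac
Cdkn2a upstream start, chr4:89294620-89294869, minus strand: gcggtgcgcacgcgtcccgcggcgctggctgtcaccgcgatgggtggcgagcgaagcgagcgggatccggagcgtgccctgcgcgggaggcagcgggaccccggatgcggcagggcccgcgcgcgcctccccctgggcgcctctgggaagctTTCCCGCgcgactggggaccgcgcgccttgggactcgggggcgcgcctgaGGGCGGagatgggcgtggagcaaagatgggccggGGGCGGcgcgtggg
Cdkn2a downstream start, chr4:89282193-89282442, minus strand: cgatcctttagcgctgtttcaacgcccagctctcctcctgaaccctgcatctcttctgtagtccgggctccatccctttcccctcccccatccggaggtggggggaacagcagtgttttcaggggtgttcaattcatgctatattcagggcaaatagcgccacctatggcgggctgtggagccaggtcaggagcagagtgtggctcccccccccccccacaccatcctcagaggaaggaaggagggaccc
Cdkn2b start, chr4:89311033-89311282, minus strand: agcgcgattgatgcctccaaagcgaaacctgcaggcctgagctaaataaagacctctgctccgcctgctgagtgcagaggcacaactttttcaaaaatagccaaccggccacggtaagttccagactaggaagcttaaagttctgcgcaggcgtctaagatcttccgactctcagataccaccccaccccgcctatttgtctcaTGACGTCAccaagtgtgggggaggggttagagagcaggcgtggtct
Cdkn2c upstream start, chr4:109666757-109667006, minus strand: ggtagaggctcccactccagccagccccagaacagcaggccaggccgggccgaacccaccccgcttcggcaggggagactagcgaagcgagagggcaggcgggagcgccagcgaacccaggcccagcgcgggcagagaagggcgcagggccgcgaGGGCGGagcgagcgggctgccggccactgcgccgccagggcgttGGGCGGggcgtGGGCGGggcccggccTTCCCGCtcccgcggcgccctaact
Of these, the window of the upstream Cdkn1a start held a p53 site, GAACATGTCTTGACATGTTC, with 1 mismatch. Among 32851 windows of all genes, 25 (0.0761%) held such a site. Cdkn1a is the textbook target of p53. Each of the 2 Cdkn1a windows held 1 TATA box match, and the downstream one also held 2 GC boxes. GC boxes were in 32.7% of all windows and TATA boxes in 22.8%.

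The windows of the 2 Cdkn2a starts were unlike. The upstream one, where the first exon of ARF lies, held 40 CG dinucleotides, more than in 98.7% of all windows, with 2 GC boxes and 1 E2F core. The downstream one, where the first exon of p16 lies, held 7 CG dinucleotides and none of the motifs searched. E2F cores were in 3.82% of all windows. Cdkn2b held 1 cyclic AMP response element, found in 1.55% of all windows, and the window of the upstream Cdkn2c start held 3 GC boxes and 1 E2F core. A second Cdkn2c window, at the downstream start and not shown, held 6 CG dinucleotides and none of the motifs searched. These are descriptions of letters, and no binding or methylation was measured.

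Levels are FPKM, fragments mapped to a gene per unit of its length and of library size, as the authors deposited them. Members can therefore be compared with each other within a library, while a difference between libraries is one of shares and not of molecules per cell. There were no replicate libraries, so no value carries an error and no difference was tested. A gene was called higher or lower between 2 libraries when its log2(FPKM + 1) differed by at least 1, a 2-fold difference on that scale, and at least 1 of the values reached 1 FPKM. The log2(FPKM + 1) scale understates differences of weakly expressed genes. The share of all rows past the same threshold is given as the background of each comparison.

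Sequencing depth is not given in the table, and the low values did not yield it. The most frequent ratio to MEFs among them was shared by 26 of 920 rows at day 3, 16 of 1038 at day 6 and 11 of 554 in iPSCs, too few to read a relative depth from. The columns summed to between 438130 and 486609 FPKM. The 8 fibroblast markers checked, such as Col1a1 and Thy1, were all at 1 FPKM or more in MEFs and summed to 199 FPKM in iPSCs and 7244 in MEFs. All 8 pluripotent cell markers, such as Nanog and Zfp42, were at 1 FPKM or more in iPSCs, and 0 of them in MEFs. At day 3 and at day 6 the 1 such marker at 1 FPKM or more was Pou5f1, which is also an induced factor. Macrophage markers, of cells that can accompany fibroblasts, summed to 13.1 FPKM in iPSCs and 74.3 in MEFs, with Ptprc and Emr1 listed at 0 in iPSCs. Of the 7 such markers 1 was at 1 FPKM or more in iPSCs, Cd68, and 6 were in MEFs.

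Cdkn1a, which encodes p21, the inhibitor that p53 induces, was the most abundant CIP/KIP gene in every library. Levels of Cdkn1a were 66.1 FPKM for MEFs, 76.6 for day 3, 76.0 for day 6 and 22.5 for iPSCs. The 3 libraries before the iPSC stage differed by at most 1.16-fold, and iPSCs stood below all of them. The iPSC value was 34.1% of the MEF value, a log2 difference of -1.51, and the call was lower. Of 12937 rows compared between iPSCs and MEFs, 15.4% were at least as far below.

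Cdkn1b encodes p27, which restrains CDK2 complexes in quiescent cells and is removed by the ubiquitin ligase SCF-SKP2 as cells enter S phase. Its values were the steadiest over the whole course, 18.1 FPKM for MEFs, 17.1 for day 3, 15.4 for day 6 and 21.9 for iPSCs. The highest exceeded the lowest by 1.42-fold. All 5 comparisons were within the threshold, and the iPSC minus MEF log2 difference was 0.26. As p27 is controlled to a large extent at the level of protein, RNA levels do not show its amount.

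Cdkn1c, the imprinted gene of p57, which is expressed from the maternal copy and restrains growth of embryo and placenta, took the opposite course to Cdkn1a. Levels of Cdkn1c were 3.20 FPKM for MEFs, 1.59 for day 3, 0.982 for day 6 and 19.5 for iPSCs. Each of the 2 induced libraries was below MEFs, and iPSCs were above all the others. At day 6 its log2 difference from MEFs was -1.08, just past the threshold, and its day 6 level was 30.7% of that in MEFs. That call ended with a pseudocount of 5 FPKM, which gave -0.46. In iPSCs the level was 6.09-fold that of MEFs, a log2 difference of 2.29, and 19.9-fold that of day 6, a log2 difference of 3.37. Between iPSCs and day 6, 1.79% of 12951 rows were at least as far above. Cdkn1c was the member with the widest range, 3.37 on the log2(FPKM + 1) scale. That rank rests on its low day 6 value. With a pseudocount of 5 FPKM its difference between iPSCs and day 6 was 2.03, smaller in size than the -2.61 of Cdkn2a between iPSCs and MEFs.

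**Figure D1:**
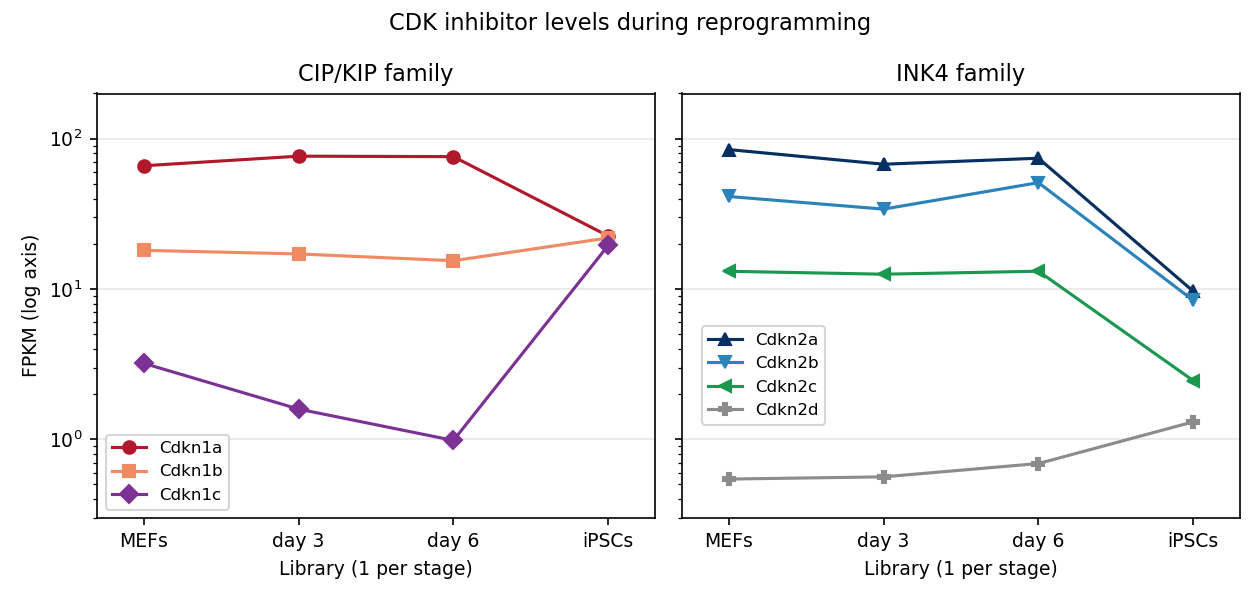
FPKM (log axis) of the 3 CIP/KIP genes and the 4 INK4 genes in the MEF, day 3, day 6 and iPSC libraries, 1 library per stage, with lines joining the values of a gene. Cdkn1a, Cdkn2a, Cdkn2b and Cdkn2c are lowest in iPSCs, at 22.5, 9.65, 8.39 and 2.45 FPKM, and Cdkn1c is highest there at 19.5 FPKM.

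Cdkn2a, the gene of p16 and ARF, was the most abundant inhibitor in MEFs. Levels of Cdkn2a were 84.7 FPKM for MEFs, 67.7 for day 3, 74.2 for day 6 and 9.65 for iPSCs. The day 3 and day 6 libraries lay within 1.25-fold of MEFs, while iPSCs were at 11.4% of the MEF level. The log2 difference of iPSCs from MEFs was -3.01, the most negative among the 7 members, and 4.41% of all rows compared were at least as far below. The remaining level left Cdkn2a above 64.9% of rows in iPSCs, against 94.4% at day 6.

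Cdkn2b, which lies next to Cdkn2a and encodes p15, the INK4 inhibitor that TGF-beta induces, had its highest value at day 6. Levels of Cdkn2b were 41.3 FPKM for MEFs, 34.0 for day 3, 51.0 for day 6 and 8.39 for iPSCs. Day 6 was 1.5-fold day 3, a log2 difference of 0.57 that was within the threshold, and 1.96% of 11817 rows were at least as far above. In iPSCs the log2 difference from MEFs was -2.17, and the call was lower. In the RefSeq annotation Cdkn2b overlaps the long noncoding RNA gene Gm12610, which has no row in the table, and no source used here gives the strand setting of the counting. Reads from that RNA could therefore be included in the Cdkn2b value.

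Cdkn2c encodes p18, an INK4 inhibitor of CDK6 and CDK4 that is itself an E2F target. Levels of Cdkn2c were 13.1 FPKM for MEFs, 12.5 for day 3, 13.1 for day 6 and 2.45 for iPSCs. The values before the iPSC stage differed by at most 1.05-fold, the smallest spread of any member over those libraries. In iPSCs the level was 18.7% of that in MEFs, with a log2 difference of -2.03 and the call lower.

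Cdkn2d, the gene of the INK4 inhibitor p19 (a protein other than ARF), was the least abundant member in every library. Levels of Cdkn2d were 0.543 FPKM for MEFs, 0.562 for day 3, 0.689 for day 6 and 1.31 for iPSCs. Only the iPSC value reached 1 FPKM, so Cdkn2d was compared only where iPSCs were. Its log2 difference of iPSCs from MEFs was 0.58, within the threshold. With a pseudocount of 0.1 FPKM, which weighs low values more, the call against MEFs became higher.

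In early induction few members moved past the threshold, and few rows of the whole table did. The fibroblast marker sum was 6950 FPKM at day 3 and 6934 at day 6, against 7244 in MEFs. Among the induced factors, Pou5f1 was at 8.56 FPKM at day 6, against 0.226 in MEFs and 740 in iPSCs. Klf4 was at 12.1 at day 6 and 10.6 in MEFs, and Myc at 22.8 and 16.8. The share of cells that responded to induction was not measured. At day 3 against MEFs, 0 of the 6 members compared were called, against a background of 0.221% of 11740 rows in either direction, 0.17% higher and 0.0511% lower. The median log2 difference was -0.17 over these 6 and -0.02 over all rows. All 3 INK4 genes compared were below their MEF values, with Cdkn2a at -0.32 and Cdkn2b at -0.27, and Cdkn1a was above at 0.21. The largest was Cdkn1c at -0.70, and 0.221% of rows were at least as far below. At day 6 against day 3, 0 of 6 were called, with a background of 0.855% in either direction, 0.457% higher and 0.398% lower. The 3 INK4 genes compared were above their day 3 values, and Cdkn1b and Cdkn1c were below, at -0.14 and -0.39. Cdkn1a, at -0.01 as deposited, was above 0 under all 3 rescalings, by 0.07 at most. At day 6 against MEFs, 1 of 6 was called, Cdkn1c, which was lower, with a background of 1.35% of 11816 rows in either direction, 0.77% higher and 0.584% lower. These 3 comparisons share libraries, so they are not separate observations.

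Between iPSCs and earlier stages 5 of the 7 members were called. Against MEFs, 1 was higher (Cdkn1c) and 4 were lower (Cdkn1a, Cdkn2a, Cdkn2b and Cdkn2c), and against day 6 the same genes were called in the same directions. The background was 46% of rows against MEFs, with 21.1% higher and 25% lower, and 43.8% against day 6, with 20.4% higher and 23.4% lower. The median of the 7 members was -1.51 against MEFs and -1.71 against day 6, and that of all rows was -0.05 and -0.02. A count of 5 of 7 therefore stands against a background in which large differences were common. In a bulk library, fewer cells of a type and less RNA per cell cannot be told apart. The fibroblast and macrophage marker sums given above moved with the lower inhibitors, and their part in these differences was not tested.

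**Figure D2:**
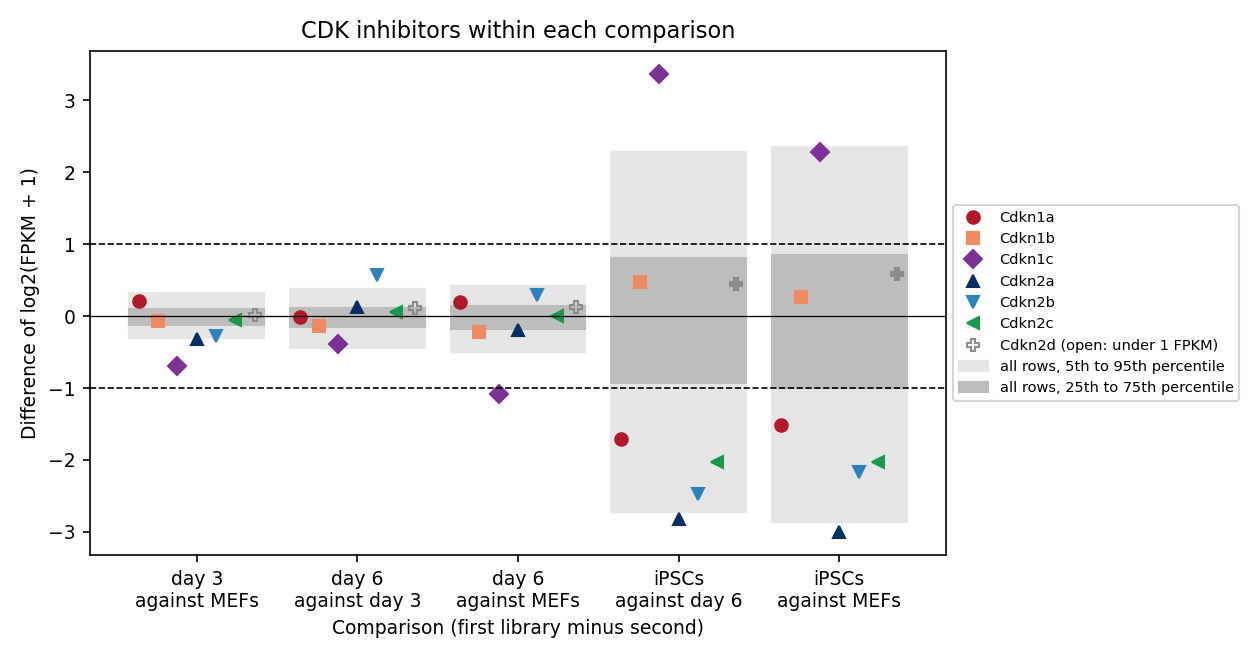
Difference of log2(FPKM + 1) for each CDK inhibitor in 5 comparisons, first library minus second, over grey bands for the 5th to 95th and 25th to 75th percentiles of all rows compared. Dashed lines mark the threshold of 1, and open symbols a gene under 1 FPKM in both libraries. Cdkn1c lies lowest at day 6 against MEFs (-1.08), and Cdkn2a lies lowest in iPSCs against MEFs (-3.01).

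The order of the members by level changed with the stage. In MEFs it was Cdkn2a, Cdkn1a, Cdkn2b, Cdkn1b, Cdkn2c, Cdkn1c and Cdkn2d, and at day 3 and day 6 Cdkn1a and Cdkn2a changed places at the top. These top genes differed by 0.18 at day 3 and 0.03 at day 6 on the log2(FPKM + 1) scale, which is within the threshold. In iPSCs the order was Cdkn1a, Cdkn1b, Cdkn1c, Cdkn2a, Cdkn2b, Cdkn2c and Cdkn2d, so the 3 CIP/KIP genes all stood above the 4 INK4 genes. Cdkn1a, Cdkn1b and Cdkn1c there lay between 19.5 and 22.5 FPKM, and the step down to Cdkn2a was 0.95. Cdkn1a was 1.03-fold Cdkn1b in iPSCs, against 3.65-fold in MEFs. Cdkn2a was 1.15-fold Cdkn2b in iPSCs, against 2.05-fold in MEFs.

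Summed over a family, INK4 RNA came to 140 FPKM for MEFs, 115 for day 3, 139 for day 6 and 21.8 for iPSCs. CIP/KIP RNA was at 87.4, 95.3, 92.4 and 63.9 FPKM in the same order of stages. The CIP/KIP sum was thus less different between iPSCs and MEFs than the INK4 sum, with the Cdkn1c level of iPSCs making up 19.5 of its 63.9 FPKM. INK4 genes held 25.4% of the inhibitor sum in iPSCs, against 61.5% in MEFs. At day 3 that share was 54.6% and at day 6 it was 60.1%.

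Set against kinases that they bind, both families were lowest in iPSCs. The INK4 sum was 0.0711 times the sum of Cdk4 and Cdk6 in iPSCs, against 0.531 times in MEFs. At day 3 and day 6 the ratio was 0.489 and 0.546. The INK4 sum differed more than its kinases did, since Cdk4 and Cdk6 together were at 307 FPKM in iPSCs and 263 in MEFs. The CIP/KIP sum was 0.252 times the sum of Cdk1 and Cdk2 in iPSCs, against 1.16 times in MEFs, and it was 1.34 at day 3 and 1.10 at day 6. There the kinases differed more than the inhibitors, with Cdk1 and Cdk2 at 254 FPKM in iPSCs and 75.1 in MEFs. Cdk1 alone was at 228 and 63.2 FPKM. Cdk4, which CIP/KIP proteins help to assemble with cyclin D, is not part of this ratio. These are ratios of RNA and not of protein.

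**Figure D3:**
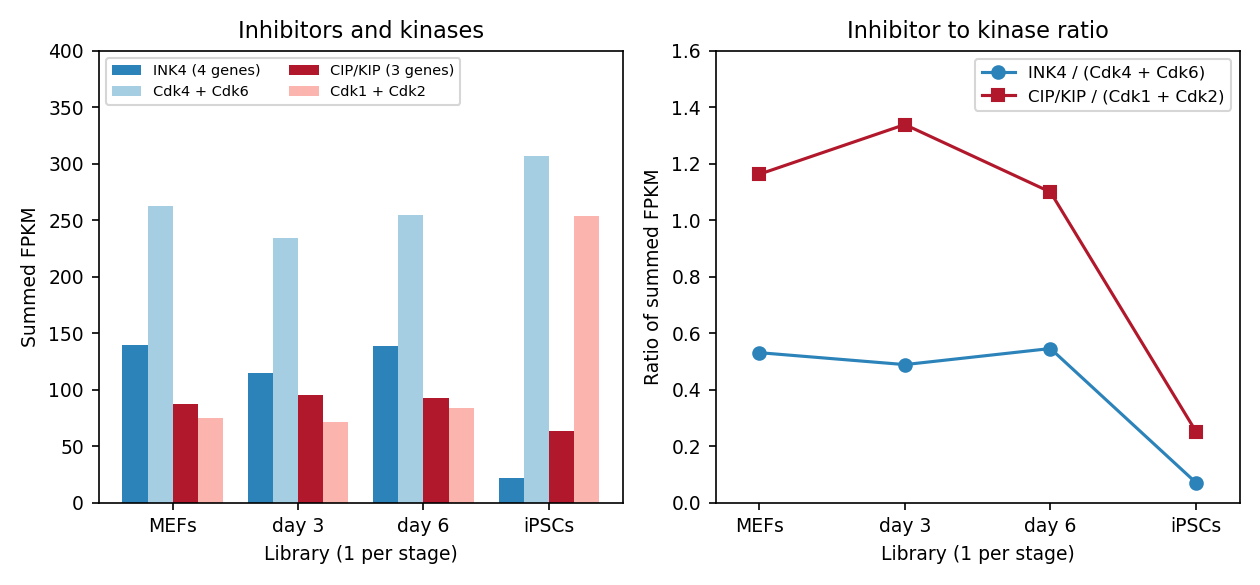
Left, summed FPKM of the INK4 genes, Cdk4 with Cdk6, the CIP/KIP genes and Cdk1 with Cdk2 in each library. Right, the ratio of INK4 to Cdk4 with Cdk6 and of CIP/KIP to Cdk1 with Cdk2, which is 0.0711 for INK4 and 0.252 for CIP/KIP in iPSCs and 0.531 and 1.16 in MEFs.

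For the lists of related genes that follow, the background between iPSCs and MEFs was again 21.1% of all rows higher and 25% lower, with a median of -0.05. Of 13 cyclins and CDKs compared between iPSCs and MEFs, 6 were higher (46.2%) and 3 lower (23.1%), with a median of 0.84. The 3 lower genes were Ccnd1, Ccnd2 and Cdk6, which are D-type cyclins and a kinase they activate. Ccnd1 was at 15.1 FPKM in iPSCs, against 82.4 in MEFs, and Ccnd2 at 3.17 against 100. The third D-type cyclin gene, Ccnd3, was above its MEF level, at 90.6 FPKM in iPSCs and 50.1 in MEFs, a difference of 0.84 within the threshold, and was called higher against day 6. Cdk6 was at 2.16 in iPSCs and 8.83 in MEFs, while Cdk4 was within the threshold at 305 and 254. Ccnd1 was also the cyclin with the largest difference at day 6, at 160 FPKM, against 82.4 in MEFs, which at 0.95 lay just under the threshold. The higher genes were those of S phase and mitosis, among them Ccna2 at 146 FPKM in iPSCs and 35.4 in MEFs, and Ccnb1 at 182 and 25.6. All 14 proliferation genes, which include the MCM helicase subunits, were called higher in iPSCs against MEFs, and their median difference was 2.45. They were all above MEFs at day 6 as well, with a median of 0.37 and 0 of 14 past the threshold.

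The pocket proteins and E2F factors receive the signal of the kinases. Of 13 compared between iPSCs and MEFs, 3 were higher (E2f5, E2f7 and E2f8) and 2 lower (Rbl2 and E2f6), or 23.1% and 15.4%, against 21.1% and 25% of all rows. The share higher is thus near the background. Rb1, the retinoblastoma gene, was at 18.6 FPKM in iPSCs and 18.9 in MEFs. Rbl2, the pocket protein of quiescent cells, was at 5.72 in iPSCs and 14.3 in MEFs.

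Genes that remove CIP/KIP proteins were higher or within the threshold. Of 11 compared between iPSCs and MEFs, 4 were higher (36.4%) and 0 lower, against 21.1% and 25% of all rows, with a median of 0.82. Skp2, whose F-box protein marks p27 for degradation, was at 14.9 FPKM in iPSCs, against 5.67 in MEFs. Dtl, the CDT2 receptor that marks p21 and p57, was at 19.2 against 4.10, and its partners Cul4b and Pcna were also called higher. Cul1, Cul4a, Ddb1 and Rnf123 were below their MEF values within the threshold, at -0.59, -0.81, -0.28 and -0.62. At day 3 and day 6 against MEFs 0 of the 11 were called.

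Factors that act on CIP/KIP transcription were called about as often as all rows. Of 11 compared between iPSCs and MEFs, 3 were higher (Foxo3, Foxo4 and Sp1) and 3 lower (Smad3, Klf6 and Myc), or 27.3% each, against 21.1% and 25% of all rows. Foxo3, which activates Cdkn1b, was at 21.2 FPKM in iPSCs and 8.15 in MEFs. Smad3, which relays TGF-beta to Cdkn2b and Cdkn1a, was at 9.21 and 32.2. Myc, which represses Cdkn1a and Cdkn2b, was at 1.83 and 16.8, and its induced copies and resident gene are not separated in the table.

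The p53 axis did not share the direction of Cdkn1a as a list. Of 19 genes compared between iPSCs and MEFs, 2 were higher (Mdm4 and Bbc3) and 3 lower (Btg2, Pmaip1 and Plk2), or 10.5% and 15.8%, against 21.1% and 25% of all rows, with a median of -0.03, against -0.05 over all rows. Trp53 itself was at 89.5 FPKM in iPSCs and 54.7 in MEFs, a difference of 0.70 within the threshold. Mdm2, which p53 also induces, was at 89.5 and 75.8. Btg2, an antiproliferative p53 target, was at 25.4 in iPSCs and 108 in MEFs, the most negative difference of the list at -2.05. At day 3 and day 6 against MEFs 0 of 19 were called.

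Repressors of the INK4/ARF locus were more often higher than lower in iPSCs. Of 14 compared with MEFs, 7 were higher and 2 lower, with a median of 1.17, where the background was 21.1% higher and 25% lower. Cbx7, a chromobox protein of polycomb complex 1, was at 69.5 FPKM in iPSCs, against 1.33 in MEFs. The polycomb complex 2 genes Ezh2, Eed and Suz12 were at 39.4, 40.8 and 45.6 in iPSCs, against 6.70, 12.2 and 9.70 in MEFs. The H3K36 demethylase gene Kdm2b was at 23.5 and 8.19. The 2 lower genes were Bmi1, the classic repressor of Cdkn2a, at 5.05 FPKM in iPSCs and 29.6 in MEFs, and Id1, which opposes ETS activation of p16, at 8.22 and 86.2. Of 8 activators compared, 0 were higher and 2 lower, Ets1 at 2.90 against 13.1 and Junb at 9.14 against 139. The share of activators lower was thus 25%, the same as among all rows, and their median was -0.05, also that of all rows.

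**Figure D4:**
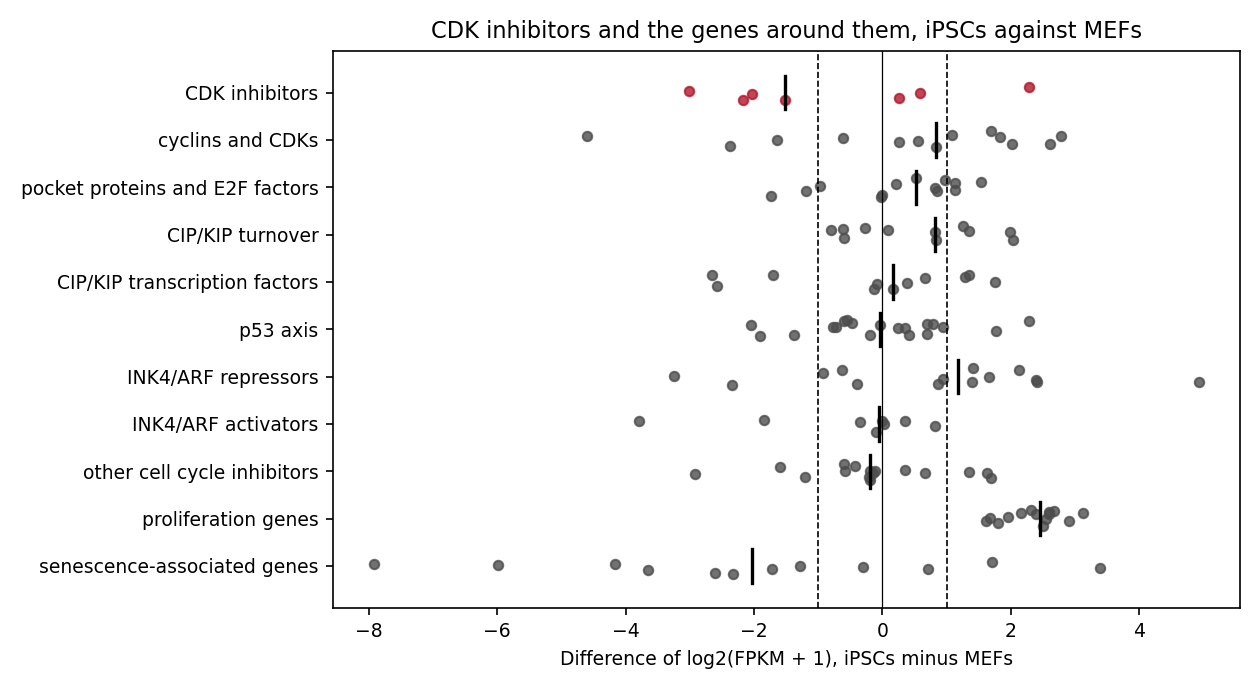
Difference of log2(FPKM + 1), iPSCs minus MEFs, for the 7 CDK inhibitors (red) and for genes of 10 lists (grey), 1 point per gene with at least 1 FPKM in either library. Black bars are medians, -1.51 for the CDK inhibitors, 1.17 for the INK4/ARF repressors and 2.45 for the proliferation genes, and dashed lines mark the threshold of 1.

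Genes beside the inhibitors on the chromosome did not all go with them. Mtap, the metabolic gene next to Cdkn2a, was at 23.0 FPKM in iPSCs and 34.6 in MEFs, a difference of -0.57 within the threshold, where Cdkn2a and Cdkn2b were lower. Dmrta1, next to Cdkn2b, was at 0.0746 FPKM in iPSCs and 0.00444 in MEFs, too low to compare. In the imprinted domain of Cdkn1c, Phlda2, another growth restrainer, was at 33.0 FPKM in iPSCs, against 0.0722 in MEFs. Ascl2, a trophoblast factor of the same domain, was at 4.89 against 0.0264. Slc22a18, the coding gene next to Cdkn1c, was at 3.08 and 5.28, within the threshold, and was called lower against day 6. Osbpl5 was lower against MEFs at 2.21 and 40.6, as were Tssc4 at 11.6 and 27.3 and Cd81 at 185 and 453. Of 7 genes of the domain compared between iPSCs and MEFs, 2 were higher and 3 lower. At day 6, where Cdkn1c was at its lowest, Phlda2 and Ascl2 were at 0.189 and 0.0579 FPKM. These values were above those of MEFs but too low to compare.

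The genes whose course over the 4 libraries was most like that of each inhibitor were found by the distance between mean-centred log2(FPKM + 1) profiles, among 7620 rows of at least 10 FPKM in any library. Rows with names of predicted genes, clones and small RNAs were left out of these. The name filter also left out all names that start with Rn, such as the Rnf genes. This is a description over 4 points that is governed mostly by the iPSC value. Nearest to Cdkn1a was Cd276, an immune checkpoint surface protein, at 13.8, 15.7, 15.7 and 3.88 FPKM from MEFs to iPSCs (distance 0.07). Nearest to Cdkn2a was the MHC class I gene H2-D1, at 74.0, 57.6, 68.0 and 8.39 (0.08). Cdkn2b was nearest to the tetraspanin gene Tspan4 (0.15) and Cdkn2c to the cytochrome P450 gene Cyp20a1 (0.03). Cdkn1c stood most alone, with its nearest row, the cystathionine beta-synthase gene Cbs, at a distance of 0.20. Among the members themselves the closest pairs were Cdkn1b with Cdkn2d (0.29) and Cdkn1a with Cdkn2c (0.37), each joining the 2 families, and the most distant was Cdkn1c with Cdkn2a (4.99). The first of these distances is limited by the low level of Cdkn2d, whose differences this scale understates. The iPSC level of Cdkn2d was 2.40-fold that of MEFs, and that of Cdkn1b was 1.21-fold.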

How the data were processed

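Long RNA sequencing was made from 4 cell stages, 1 library each, after removal of ribosomal RNA, per the labels' protocols. The 4 small RNA libraries of the series were not analysed here. The authors deposited FPKM values per gene, per the file headers. The submitters' processing notes name HISAT2, Cufflinks and the build mm9 without saying how each was used. The sources used here do not give the gene models, strand setting, filters or pooling.

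From these values, log2(FPKM + 1) differences, counts by the threshold, family sums and profile distances were computed with Python 3.11.15, numpy 2.4.6 and pandas 2.3.3, on the whole table. Only the counting code was tested on simulated data, and the error of the threshold is not known. With 1 library per group there is no error, p-value or replicate check. Depth is not stated, so precision is unknown and lowest for low values. A list gene on more than 1 row is represented by its highest row. Medians of the 17 gene lists are over members with at least 1 FPKM in either library compared. The members and lists were chosen with earlier results of these data known, and the named genes are the members, the list genes and the 3 nearest profiles of each member. Alternatives were pseudocounts of 0.1 and 5 FPKM, 3 rescalings, other thresholds and other minimums.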

Additional observations from a re-analysis of the deposited data

How the results depend on the processing

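Of 90 counts of members called under the alternatives, 85 stayed within 1.5 times the main count, and all counts under the 3 rescalings (upper quartile, column sum, median of ratios) did. Many of the main counts were 0, and most of these stayed at 0. Rescaling to the upper quartile moved the median of all rows between iPSCs and MEFs to 0.11, against -0.05 as deposited. At day 3 against MEFs, where 0 members were lower, a threshold of 1.5-fold gave 1 (Cdkn1c). At day 6 against MEFs, where 1 was lower, a log2 threshold of 2, a minimum of 5 FPKM and a pseudocount of 5 FPKM each gave 0. For iPSCs against MEFs, where 1 was higher, a pseudocount of 0.1 FPKM gave 2, with Cdkn2d added. For iPSCs against MEFs and against day 6, where 4 were lower, a log2 threshold of 2 gave 3, with Cdkn1a lost. These shifts follow from the construction of each alternative. Of 175 member differences, 169 moved by no more than 1.5-fold, and 5 of the other 6 moved with the pseudocount of 5 FPKM. Of 420 list medians, 406 moved by no more than that. All 24 family sums did so too. No paired analysis was possible because there was a single library at each stage, so that no replicate could be left out either. Low values, such as those of Cdkn1c at day 3 and day 6 and of Cdkn2d, are limited by depth.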

Other observations

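Other inhibitors of cell cycle progression, which belong to neither CDK inhibitor family, were called no more often than all rows. Of 16 compared between iPSCs and MEFs, 3 were higher and 3 lower, or 18.8% each, against 21.1% and 25% of all rows, with a median of -0.20. The kinases that place inhibitory phosphates on CDK1 were among the higher ones, with Wee1 at 22.3 FPKM in iPSCs, against 6.22 in MEFs, and Pkmyt1 at 10.4 against 3.47. Gadd45g, a stress-induced growth arrest gene, was at 14.0 in iPSCs and 112 in MEFs. Gas1, named for its induction in growth-arrested fibroblasts, was at 18.0 FPKM at day 6, against 10.2 in MEFs, a difference of 0.76 within the threshold, and at 2.69 in iPSCs. Cdkn3, a phosphatase that acts on CDK2 and carries a similar symbol, was within the threshold at 7.09 in iPSCs and 5.36 in MEFs.

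Genes that accompany senescence were high at day 6 in part and low in iPSCs. Of 14 compared between day 6 and MEFs, 4 were higher and 0 lower, where 0.77% of all rows were higher. The secreted factors Il6 and Cxcl1 were at 5.18 and 7.65 FPKM at day 6, against 1.77 and 2.88 in MEFs, the protease Mmp3 was at 2.45 against 0.523, and Igfbp3 was at 31.3 against 5.94. Cdkn2b had its highest value in the same library, at a difference of 0.30 from MEFs that was within the threshold. Cdkn1a was also above its MEF value in that library, at 0.20, and Cdkn2c was level with it. Cdkn2a, Cdkn1b and Cdkn1c were below theirs, at -0.19, -0.22 and -1.08. Single markers of other cell types were also called higher there. The epidermal keratin gene Krt14 was at 4.66 FPKM at day 6 and listed at 0 in MEFs. The endothelial receptor gene Tek was at 2.06 and 0.262. The other epidermal and endothelial markers were not called. Pecam1, Kdr, Emcn and Krt10 were below their MEF values, and Cdh5, Krt15 and Trp63 above theirs. The 4 epidermal markers found summed to 5.95 FPKM at day 6 and 1.05 in MEFs, and the 5 endothelial ones to 2.15 and 0.453. Krt14 and Tek made up most of the day 6 sums. The part of these cell types in the senescence-associated differences was not tested. Of 12 compared between iPSCs and MEFs, 8 were lower (66.7%) and 2 higher (16.7%), against 25% and 21.1% of all rows. Lmnb1, a lamin whose loss marks senescent cells, was at 79.2 FPKM in iPSCs and 6.67 in MEFs.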
